A study of Mus musculus with 10 samples.

Results

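A set of 9 genes of the Sonic hedgehog (Shh) pathway was examined in YFP-positive cells of the e10.5 mouse spinal cord: the ligand gene Shh, the receptor gene Ptch1, the signal transducer Smo, the transcription factor genes Gli1, Gli2 and Gli3, and the co-receptor genes Boc, Gas1 and Cdon. They were chosen by symbol, as 9 of the 48975 genes to which the deposited counts could be assigned, and all 9 passed the filter on low counts. The RNA-seq data covered 10 samples, 5 control and 5 cdKO, and addressed which genes lie downstream of the Onecut (OC) transcription factors in motor neurons. All embryos carried a single copy of Olig2-Cre and of the Rosa26R-YFP reporter. Control embryos were Oc1+/Flox and Oc2+/Flox, so Cre could remove at most a copy of each gene, and cdKO embryos were Oc1-/Flox and Oc2-/Flox. Cells were sorted by their YFP signal from dissociated spinal cords. Because Olig2 drives the Cre, the YFP label starts in ventral progenitors and, in the study's own immunostaining, also reached cells ventral to motor neurons that correspond to V3 interneurons. The samples were therefore not pure motor neurons. Neither the labels nor the methods used here tie each sample to an embryo or a pool. The p-values below therefore weigh differences against the spread between these samples, which may be partly technical.

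Shh is a secreted protein made by the notochord and the floor plate, and later also by motor neurons themselves. It binds Ptch1, which otherwise keeps Smo inactive, and the co-receptors Boc, Gas1 and Cdon assist this binding. Active Smo turns the Gli factors into activators and stops the formation of the Gli3 repressor, and the graded response along the ventral neural tube sets the position of each progenitor domain, including the Olig2-positive domain that gives rise to motor neurons. Ptch1 and Gli1 are themselves induced by the signal and are commonly read as its transcriptional output.

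The DNA sites of Gli factors carry the core of the consensus GACCACCCA. Promoter sequences, from 250 bases before to 50 bases after an annotated start, were taken from RefSeq (GRCm38.p6). They were found for 6 of the 9 genes: Ptch1, Smo, Gli2, Gli3, Gas1 and Cdon. None was available for Shh, Gli1 and Boc. The start used lay at exon 2 for Ptch1 and Gli3 and within exon 5 for Cdon. The region before exon 1 of these 3 genes was therefore not searched. The 9-base consensus, searched on both strands (reverse TGGGTGGTC), was in none of the 6 promoters and in 83 of 32851 promoters of the same length (0.253%). Its inner 6 bases, CCACCC (reverse GGGTGG), were in 3 of the 6, against 31.5% of all promoters. The stretches that hold them are shown because they are the places in the windows searched with letters of the Gli motif. Capitals mark the 6 bases and each sequence reads 5′ to 3′ on the strand of its gene.
Smo, chr6:29735317-29735358, plus strand, 162 bases before the start: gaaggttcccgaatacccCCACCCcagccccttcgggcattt
Gli2, chr1:119053788-119053842, minus strand, 205 and 192 bases before the start: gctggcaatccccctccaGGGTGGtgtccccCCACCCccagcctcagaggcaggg
Gli3, chr13:15463535-15463576, plus strand, 170 bases before the start: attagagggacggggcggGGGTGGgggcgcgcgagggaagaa
A match of letters is a description of the sequence and no binding was measured here.

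The deposited values were read counts on exon bins, the non-overlapping pieces of exons, which were summed per gene. Levels are given in CPM, the gene's summed counts scaled to a common library size after edgeR's TMM scaling, so that values compare between samples. Differences between genotypes are given as the log2 fold change of cdKO against control from edgeR's quasi-likelihood fit, with its standard error (SE), and called at a Benjamini-Hochberg adjusted p under 0.05. Totals per sample ranged from 63932395 to 107709534 counts, and a read that touched several bins had been counted on each of them. The labels were checked on the Onecut genes. Oc3 (Onecut3), known to depend on the other Onecut genes, had 29 to 68 counts in the control libraries and 0 to 3 in the cdKO libraries (exact two-sided permutation test on log2(CPM + 0.5), p = 0.00794, the smallest that 5 samples against 5 allow), and Oc1 (Onecut1) had 5.84 ± 2.82 CPM (SD, n = 5) in control and 2.71 ± 1.26 in cdKO with overlapping samples. Replicate 5 of both groups stood apart in where its reads lay. The median share of a gene's counts on bins reaching into its last 1000 exonic bases, over 5333 genes, was 27.6% in control replicate 5 and 46.5% in cdKO replicate 5, and 21.0% to 22.6% elsewhere. Results that rest on these libraries are given with and without them.

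None of the 9 genes passed the test between genotypes. In edgeR the number called was 0 of 9, beside 0% of the 17840 genes tested (percent called, 0). The smallest adjusted p of any gene was 0.0816. This fit did not call Oc3 (log2 fold change -5.08, SE 0.76, edgeR adjusted p = 0.111) or Oc1 (-1.11, SE 0.46, edgeR adjusted p = 0.938) either. The 0 of 9 therefore does not set these genes apart from genes that do differ. At an unadjusted p under 0.05 the number was again 0 of 9, where 0.813% of all genes were lower and 4.18% higher in cdKO. This balance was not stable: 16.3% of the genes at that p were lower in cdKO, but 39.8% with library size alone as the scaling and 74.5% without cdKO replicate 5. DESeq2 and limma-voom also had 0 of 9 at an adjusted and at an unadjusted p under 0.05. The cdKO samples lay wholly below the control samples for 0 of 9 genes, against 0.224% of all genes. The fold change was below 0 for 8 of 9 genes, all except Shh, against 51.8% of all genes. The median fold change of the 9 genes was -0.57 on the log2 scale, and that of all genes tested was -0.02. The standard errors ran from 0.35 to 0.59, so that even the largest difference in this fit, Gli3 at -0.84, was within 2 of its standard errors.

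**Figure D1:**
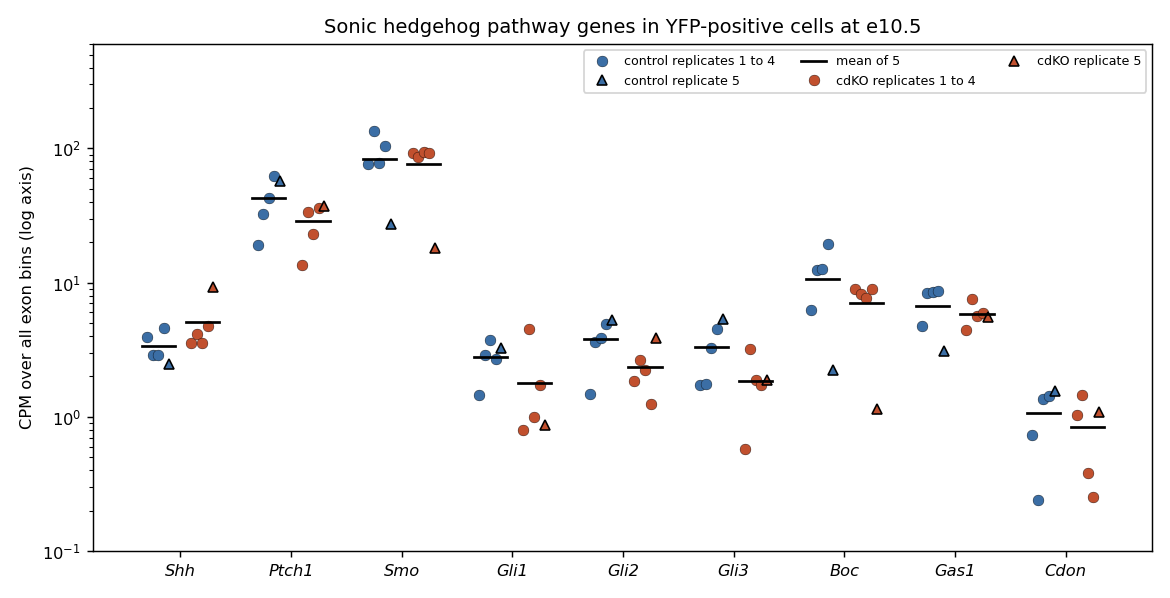
Level of each of the 9 genes in CPM over all exon bins (log axis) in the 5 control and 5 cdKO samples, with replicate 5 as triangles and the mean of 5 as a line. The groups overlap for every gene, and replicate 5 lies lowest in both groups for Smo and Boc and highest in cdKO for Shh.

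Shh itself was detected at a low level in every sample. Its level was 3.90, 2.90, 2.90, 4.596 and 2.47 CPM in control replicates 1 to 5, and 3.57, 4.13, 3.53, 4.72 and 9.31 CPM in cdKO replicates 1 to 5. All but 1 of the 10 samples lay between 2.47 and 4.72 CPM, with cdKO replicate 5 apart from them at the top. The means were 3.35 ± 0.873 (SD, n = 5) in control and 5.05 ± 2.43 in cdKO, a log2 fold change of 0.59 (SE 0.36, edgeR adjusted p = 0.961; exact two-sided permutation test, p = 0.119). Without replicate 5 of both groups the means were 3.57 ± 0.831 and 3.99 ± 0.562 (SD, n = 4) and the log2 fold change was 0.15 (SE 0.25). It was 0.36 (SE 0.34) with library size alone as the scaling and 0.13 (SE 0.75) on the exon that no other gene touches.

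The excess in cdKO replicate 5 lay on a single exon. Shh is on the minus strand of chromosome 5 (GRCm38, 28456815 to 28467256) and has 3 exons. In cdKO replicate 5, exon 3 (28456815 to 28458603) had 471 counts, exon 1 had 2 and exon 2 had 0, whereas the other cdKO samples had 64 to 71 counts on exon 1 and 54 to 83 on exon 2. Exon 3 alone had 136 to 242 counts in those 4 samples. Exon 1 and exon 3 bins, which carry 82.3% of the gene's counts, overlap the opposite-strand transcripts 9530036O11Rik and Gm26894 over 446 and 361 bases, and strand was not used in counting. Bins that belong to 9530036O11Rik alone had 2.24 counts per kb over all samples and those of Gm26894 alone 147, against 2191 on the Shh exon that no other gene touches.

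Sources of Shh other than motor neurons were checked by their markers. The floor plate list (8 genes including Shh, all 8 tested) summed to between 115 and 393 CPM in control and between 146 and 310 in cdKO, with 0 of 8 passing the test, 6 higher and 2 lower. On average most of this sum was Spon1, at 210 ± 109 CPM in control and 194 ± 90.2 in cdKO (SD, n = 5). Replicate 5 had the lowest sum of each group and also the lowest Spon1. The sum therefore mainly followed Spon1 and does not stand for the other genes of the list. Foxa2, which floor plate cells express and which in turn drives Shh there, reached 46.4 CPM in control replicate 5, while the other 9 samples lay between 8.21 and 16.6 CPM. Ntn1, which encodes the axon guidance cue netrin 1, stood at 74.7 CPM in cdKO replicate 5, the library with the high Shh value, while the remaining libraries had 16.8 to 27.6 CPM. Spon1, another secreted floor plate protein gene, was at 44.6 CPM in control replicate 5 and 44.1 CPM in cdKO replicate 5, and at 176 to 344 CPM in the rest. Of the notochord list, T and Noto did not pass the filter, with T between 0 and 0.295 CPM, highest in cdKO replicate 5 at 15 counts, and Noto between 0 and 0.0407 CPM. Foxa1, also on that list, was detected in every sample, at 1.22 ± 1.17 CPM in control and 1.64 ± 1.005 in cdKO (SD, n = 5; log2 fold change 0.43, SE 0.62). The part of these cells in the Shh values was not tested. In sorted bulk samples, fewer cells of a type and less RNA per cell cannot be told apart.

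The other 2 hedgehog ligand genes were barely detected. Ihh had 0 to 47 counts in the 10 samples. Dhh had 0 to 4 counts and did not pass the filter.

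Ptch1, the receptor that restrains Smo, was second only to Smo in CPM per kb of exon among the 9 genes. It was at 19.0, 32.5, 42.9, 62.2 and 56.9 CPM in control replicates 1 to 5 and at 13.4, 33.4, 23.2, 36.2 and 37.3 CPM in cdKO replicates 1 to 5. Only cdKO replicate 1 lay below the lowest control sample, and 3 control samples lay above the highest cdKO sample. The means were 42.7 ± 17.6 and 28.7 ± 10.2 CPM (SD, n = 5), a log2 fold change of -0.57 (SE 0.37, edgeR adjusted p = 0.974; exact permutation p = 0.246). The value was the same to the second decimal without replicate 5 of both groups (-0.57, SE 0.39). All 27 exons of Ptch1 (chromosome 13, minus strand, 63508328 to 63573598) had a lower mean in cdKO, with ratios from 0.163 to 0.875, and all 27 remained below 1 without replicates 5. The lowest ratios, 0.163 to 0.324, were on exons 3 to 5, which had only 0 to 12 counts per library. On the remaining exons the ratios ran from 0.560 to 0.875. The exons share their libraries and are not independent measurements.

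Coverage of Ptch1 also shifted in replicate 5. Its last exon, exon 27, had 3332 of 3849 counts in control replicate 5 and 1590 of 1895 in cdKO replicate 5. The share on bins reaching into the last 1000 exonic bases was 84.0% and 82.1% in those libraries and 30.3% to 41.9% in the other 8. Counted on these bins alone, Ptch1 was at 52.3 ± 34.9 CPM in control and 30.6 ± 15.6 in cdKO (SD, n = 5), a log2 fold change of -0.77 (SE 0.47, edgeR adjusted p = 0.9998). Control replicate 5 was at 109 CPM on these bins. Without replicates 5 the means there were 38.1 ± 17.1 and 25.4 ± 12.0 CPM (SD, n = 4).

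Smo, the membrane protein that passes the signal on when Ptch1 is bound, had the highest level per kb of exon of the 9 genes. It was at 76.3, 135, 77.3, 103 and 27.4 CPM in control and 92.1, 86.9, 94.0, 92.8 and 18.04 CPM in cdKO, in the order of the replicates. Replicate 5 was the lowest of its group in both genotypes, at 28.0% of the mean of the other control samples and at 19.7% of the mean of the other cdKO samples. The 4 remaining cdKO samples lay within 1.08-fold of each other and inside the range of the 4 remaining control samples. The means were 83.8 ± 39.5 and 76.7 ± 32.9 CPM (SD, n = 5), with a log2 fold change of -0.13 (SE 0.46, edgeR adjusted p = 0.998; exact permutation p = 0.698), and -0.11 (SE 0.21) without replicates 5. The sign of this value changed when control replicate 2 (0.11) or cdKO replicate 5 (0.12) was left out, and on the longest bin alone, a part of exon 1, the value was -1.37 (SE 0.84). All of exon 1 had 9 counts in cdKO replicate 5 and 416 to 493 in the other cdKO samples. Its ratio of cdKO to control was 0.846, and 0.894 without replicates 5.

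The shortfall of Smo counts in replicate 5 was larger in the 5′ exons than in the last exon. On exon 3 of 12 (chromosome 6, plus strand, 29754322 to 29754531) the 4 other control samples had 486 to 1064 counts and control replicate 5 had 65. The 4 other cdKO samples had 529 to 600 counts there, and cdKO replicate 5 had 1. On the last exon (29759852 to 29761365) cdKO replicate 5 had 772 counts where the rest of its group had 1994 to 2153, and control replicate 5 had 1015 where the rest of its group had 1968 to 3678. The share of Smo counts on bins reaching into the last 1000 exonic bases was 26.2% to 29.1% in 8 libraries, 54.8% in control replicate 5 and 84.3% in cdKO replicate 5.

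**Figure D2:**
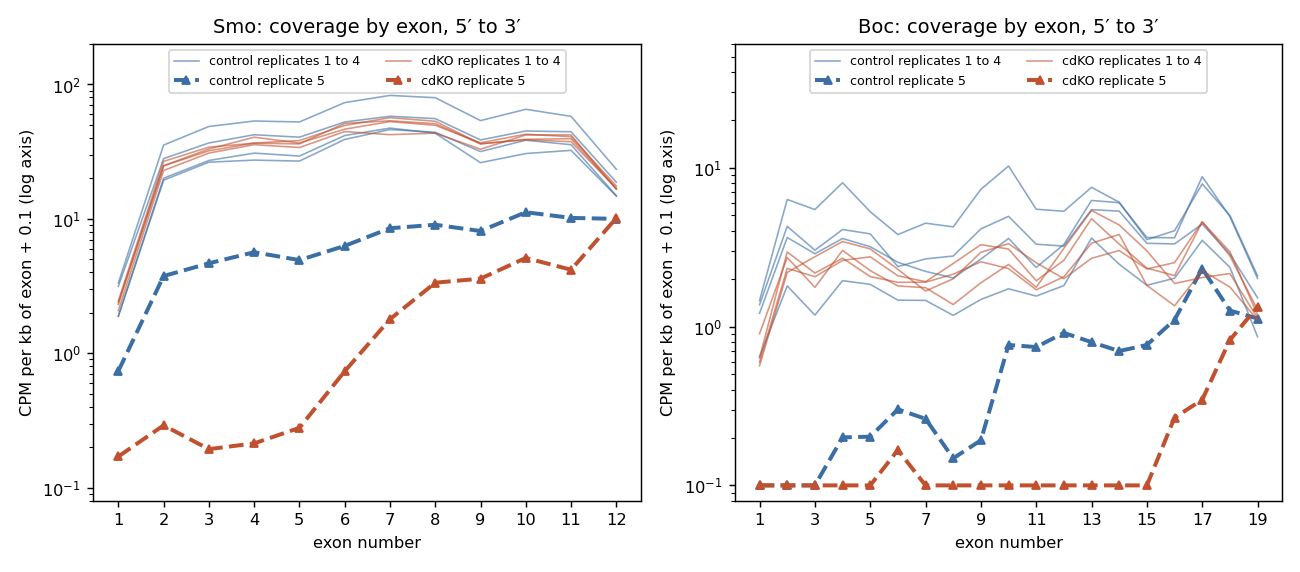
Coverage of Smo and Boc by exon, in CPM per kb of exon with 0.1 added (log axis), for each of the 10 samples, with exon number counted from the 5′ end. Replicate 5 (dashed) falls away from the other samples of its group toward the 5′ exons, furthest in cdKO replicate 5, and lies nearer to them in the last exon.

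Boc, a co-receptor that binds Shh together with Ptch1, showed the same shape. It was at 6.26, 12.5, 12.6, 19.3 and 2.22 CPM in control and at 8.98, 8.28, 7.68, 9.001 and 1.14 CPM in cdKO, in the order of the replicates. Replicate 5 was again lowest in each genotype, and among the other samples the cdKO values lay within 1.17-fold of each other, between the lowest and the next lowest control sample. The means were 10.6 ± 6.56 and 7.02 ± 3.33 CPM (SD, n = 5), a log2 fold change of -0.59 (SE 0.57, edgeR adjusted p = 0.996; exact permutation p = 0.460). Without replicates 5 they were 12.7 ± 5.31 and 8.48 ± 0.633 CPM (SD, n = 4), with a log2 fold change of -0.59 (SE 0.31). Single libraries moved this value both ways, to -0.29 (SE 0.61) without control replicate 4, -0.32 (SE 0.48) without cdKO replicate 5 and -0.85 (SE 0.51) without control replicate 5.

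Boc lies on the minus strand of chromosome 16 (44485049 to 44558897) and has 19 exons, all of which had a lower mean in cdKO, at ratios from 0.502 to 0.778. In cdKO replicate 5, 47 of the 58 counts of Boc were on exon 19. The first 15 exons held 1 count in that library. The share on bins reaching into the last 1000 exonic bases was 94.8% there and 52.7% in control replicate 5, against 15.5% to 24.1% in the others. On these bins alone replicate 5 had 42.2% of the mean of the other control samples and 46.3% of that of the other cdKO samples, in place of 17.5% and 13.5% over the whole gene.

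Gas1, a membrane-anchored co-receptor that is lowered by Shh signalling in the neural tube, was detected in every sample with overlapping groups. Control samples were at 4.71, 8.35, 8.55, 8.70 and 3.07 CPM and cdKO samples at 4.46, 7.53, 5.61, 5.97 and 5.51 CPM. A set of 3 control samples lay above all cdKO samples, and control replicate 5 lay below them. The means were 6.68 ± 2.61 and 5.82 ± 1.11 CPM (SD, n = 5), a log2 fold change of -0.20 (SE 0.35, edgeR adjusted p = 0.996; exact permutation p = 0.770). Without replicates 5 the means were 7.58 ± 1.92 and 5.89 ± 1.27 CPM (SD, n = 4) and the log2 fold change was -0.37 (SE 0.27). With a single library left out it ran from -0.096 without control replicate 3 to -0.38 without control replicate 5. Gas1 has a single exon (chromosome 13, minus strand, 60174405 to 60177365), counted as a single bin, and 19.9% of its bases overlap the opposite-strand transcript Gm48488, whose reads cannot be told apart from those of Gas1 in these counts.

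Cdon, the co-receptor related to Boc, had the lowest level per kb of exon of the 9 genes, with 21 to 123 counts per library. It was at 0.733, 0.240, 1.35, 1.44 and 1.57 CPM in control and at 1.03, 1.46, 0.381, 0.250 and 1.08 CPM in cdKO. Low and high samples were found in both groups, and every cdKO sample lay inside the control range. The means were 1.07 ± 0.562 and 0.841 ± 0.510 CPM (SD, n = 5), a log2 fold change of -0.34 (SE 0.59, edgeR adjusted p = 0.996; exact permutation p = 0.587). Without replicates 5 it was -0.28 (SE 0.65). With a single library left out it ran from -0.12 without cdKO replicate 4 to -0.64 without cdKO replicate 2, and it was -0.91 (SE 0.80) on bins reaching into the last 1000 exonic bases and -1.04 (SE 0.52) in limma-voom with sample quality weights. On those bins control replicate 5 was at 3.50 CPM and cdKO replicate 5 at 1.82 CPM. The means of the other samples there were 0.537 ± 0.239 and 0.292 ± 0.0935 CPM (SD, n = 4).

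Gli1, which is transcribed in response to the signal and acts only as an activator, had the widest spread of the Gli genes in cdKO. Control samples were at 1.45, 2.89, 3.73, 2.71 and 3.25 CPM and cdKO samples at 0.800, 4.51, 0.995, 1.73 and 0.866 CPM. A set of 3 cdKO samples lay below the lowest control sample, while cdKO replicate 2 lay above the highest. The means were 2.81 ± 0.850 and 1.78 ± 1.57 CPM (SD, n = 5), a log2 fold change of -0.65 (SE 0.51, edgeR adjusted p = 0.996; exact permutation p = 0.143). Of the single libraries, cdKO replicate 2 moved this value furthest when left out. Without it the log2 fold change was -1.35 (SE 0.43, edgeR unadjusted p = 0.00782, adjusted p = 0.671). Over all single libraries left out, the log2 fold change ran from -1.35 to -0.47. Without replicates 5 it was -0.43 (SE 0.53).

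The high Gli1 value of cdKO replicate 2 lay on several exons of the 3′ part of the gene. Gli1 lies on the minus strand of chromosome 10 (127329882 to 127341974), and exon 10 had 41 counts in cdKO replicate 2, 0 to 8 in the rest of that group and 7 to 32 in control. Exon 13, the last, had 140 counts in cdKO replicate 2 and 19 to 51 in the rest of that group. On exon 1 it had 2 counts, as did cdKO replicates 1 and 4, and on exon 4 it had 5 where those 2 had 4 each. In cdKO replicate 5 all 44 counts were on exon 13. A pair of its bins, with 51.0% of its counts, overlap the opposite-strand genes Arhgap9 and Gm47200 over 55 and 265 bases.

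Gli2, the main activator of the response, was at 1.48, 3.59, 3.87, 4.91 and 5.27 CPM in control and at 1.84, 2.65, 2.21, 1.24 and 3.84 CPM in cdKO. A set of 4 control samples lay above 4 of the 5 cdKO samples, with control replicate 1 low and cdKO replicate 5 high. The means were 3.82 ± 1.49 and 2.36 ± 0.977 CPM (SD, n = 5), a log2 fold change of -0.70 (SE 0.42, edgeR adjusted p = 0.960; exact permutation p = 0.143). Without replicates 5 it was -0.81 (SE 0.38). Counted on bins reaching into the last 1000 exonic bases, Gli2 was at 4.67 ± 2.42 CPM in control and 2.31 ± 0.644 in cdKO, a log2 fold change of -1.01 (SE 0.44, edgeR unadjusted p = 0.0384, adjusted p = 0.9998). Control replicate 5 was at 8.04 CPM on those bins, and without replicates 5 the means there were 3.82 ± 1.75 and 2.09 ± 0.482 CPM (SD, n = 4). Gli2 has 16 exons on the minus strand of chromosome 1 (118834132 to 119053619).

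Gli3, which in the absence of signal is cut to a repressor, had the largest fold change of the 9 genes in the fit over all bins and samples, but not without replicates 5 or on the last 1000 exonic bases, where Gli2 was further from 0. Control samples were at 1.74, 1.75, 3.24, 4.49 and 5.36 CPM and cdKO samples at 0.571, 3.20, 1.87, 1.72 and 1.89 CPM. A set of 3 control samples lay above every cdKO sample, and the remaining 2 control samples lay among the cdKO samples. The means were 3.32 ± 1.62 and 1.85 ± 0.932 CPM (SD, n = 5), a log2 fold change of -0.84 (SE 0.48, edgeR adjusted p = 0.951; exact permutation p = 0.159). Without replicates 5 the log2 fold change was -0.62 (SE 0.50). Gli3 lies on the plus strand of chromosome 13 (15463235 to 15730026).

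**Figure D3:**
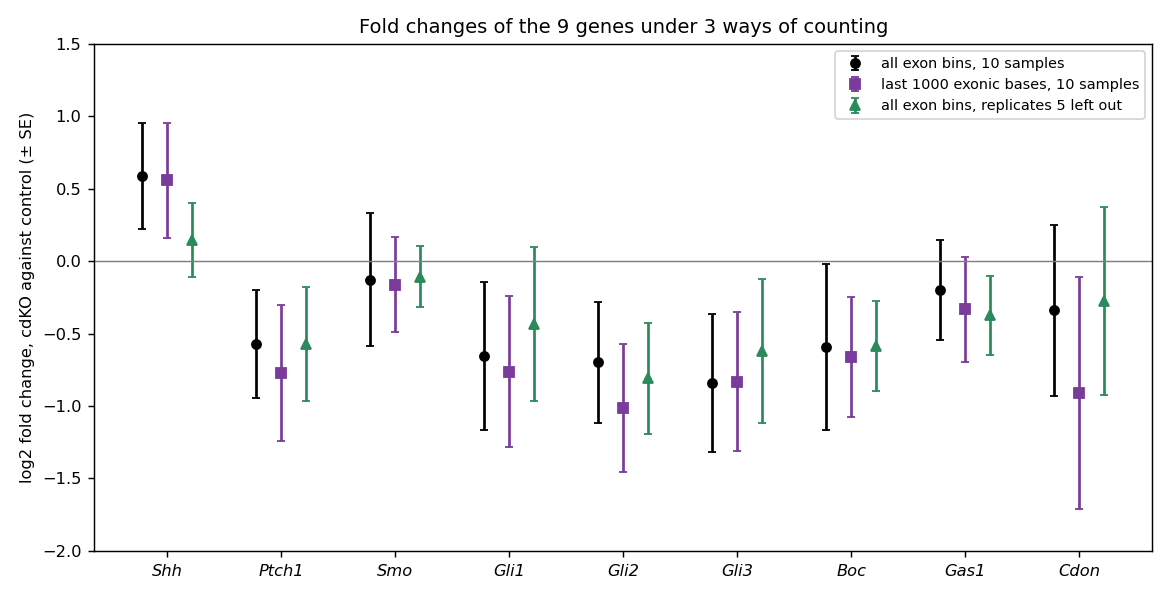
Log2 fold change of cdKO against control with its SE for the 9 genes, counted over all exon bins in 10 samples, on bins reaching into the last 1000 exonic bases in 10 samples, and over all bins in 8 samples without replicates 5. Under each way of counting 8 of the 9 values lie below 0, and Shh moves from 0.59 to 0.15 when replicates 5 are left out.

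Markers of the labelled cells were compared beside the 8 lower values. The motor neuron list (10 genes, all tested) summed to between 599 and 1091 CPM in control and between 587 and 1103 in cdKO, and the progenitor list (10 genes) to between 2074 and 3030 CPM and between 1969 and 3916. Replicate 5 had the lowest motor neuron sum and the highest progenitor sum in both groups. The other progenitor sums lay between 2074 and 2371 CPM in control and between 1969 and 2483 in cdKO. Neither list had a gene past the adjusted threshold. The motor neuron list had 4 higher and 6 lower with a median log2 fold change of -0.05, and the progenitor list 3 higher and 7 lower with a median of -0.14. Isl1, a motor neuron transcription factor and the only gene of the motor neuron list at an unadjusted p under 0.05, was at 225 ± 80.5 CPM in control and 127 ± 32.9 in cdKO (SD, n = 5; log2 fold change -0.83, SE 0.31, edgeR unadjusted p = 0.018, adjusted p = 0.938). At that threshold 0.813% of all genes were lower. Its highest value was control replicate 5 at 347 CPM. The other control samples lay between 135 and 253 CPM and the cdKO samples between 95.8 and 164 CPM. The V3 list summed to between 29.5 and 102 CPM in control and between 29.2 and 50.5 in cdKO. The highest V3 sum of each group was replicate 5, and the other samples lay between 29.5 and 37.9 CPM in control and between 29.2 and 42.9 in cdKO. The V3 medians were 31.4 CPM in control and 42.1 in cdKO. The mesenchyme list (11 genes, 10 higher in cdKO, 2 of them at an unadjusted p under 0.05) summed to between 9.72 and 21.1 CPM in control and between 13.2 and 25.5 in cdKO. Over all genes tested, 4.18% were higher at that threshold. Without cdKO replicate 5, 74.5% of the genes at that threshold were lower, so the direction of such counts was not stable. The erythroid list (5 of 6 genes tested, all 5 higher, 1 at an unadjusted p under 0.05) summed to between 0.872 and 18.5 CPM and between 2.59 and 63.2, and the neural crest list (4 of 6 tested, 3 lower) to between 45.2 and 65.1 and between 18.5 and 59.1. The erythroid maximum was cdKO replicate 5, with cdKO replicate 3 at 53.5 CPM. The neural crest minimum was also cdKO replicate 5, and the other cdKO samples lay between 37.0 and 59.1 CPM. The part of these cells in the values of the 9 genes was not tested.

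Within samples the 9 genes kept a broadly similar order. Per kb of exon bins, the control means were 14.9 CPM for Smo, 4.88 for Ptch1, 2.38 for Boc, 2.25 for Gas1, 1.18 for Shh, 0.766 for Gli1, 0.556 for Gli2, 0.346 for Gli3 and 0.138 for Cdon. For all 8 pairs of neighbours in this order the ranges of the control samples overlapped. Inside single samples, Smo was above Ptch1 in 8 of 10, the exceptions being both replicates 5, and Gli2 was above Gli3 in 10 of 10. Boc was above Gas1 in only 3 of 10 samples despite its higher mean. Reads that cross several bins count more than once, so genes with many short bins, such as Ptch1 with 40 and Cdon with 35, are raised against Gas1 with 1.

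The samples with low and high values were not the same for all genes. Control replicate 4 had the highest level of Ptch1, Boc and Gas1, and control replicate 5 that of Gli2, Gli3 and Cdon. Control replicate 1 was below the control median for 8 of 9 genes. The library cdKO replicate 1 had the lowest level of Ptch1, Gli1 and Gli3, and cdKO replicate 5 that of Smo and Boc and the highest of Shh. The fold range among samples of a single genotype was largest for Boc, at 8.69 in control and 7.88 in cdKO, and all 9 genes varied at least 1.69-fold within each genotype.

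The genes whose levels moved most closely with each of the 9 across samples were outside the pathway lists used here. After group means were removed, over the same 10 libraries and among genes with a mean of at least 10 CPM, Smo moved most closely with Map3k3 (r = 0.996) and Rasa3 (r = 0.992), and Boc with Arhgef2 and Atxn2l (r = 0.989 for both). Gas1 was closest to Aqr (r = 0.983) and Srrt (r = 0.924), and Shh to Tulp4 (r = 0.976) and Ppp4r1l-ps (r = 0.955). Ptch1 was closest to E2f3 (r = 0.973) and Ago2 (r = 0.921), Gli3 to Rbm33 (r = 0.953) and Atf1 (r = 0.950), and Gli2 to Hirip3 (r = 0.942) and Gse1 (r = 0.912). Gli1 was closest to Mcph1 (r = 0.918), and Cdon had Rere (r = 0.862) and Elf2 (r = 0.855). These are the highest of 8546 candidates (8545 for Ptch1 and Smo) and all points share their library, its depth and its coverage shape, so they only describe which profiles looked alike.

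A further 54 pathway genes in 5 lists were read in the same fit. Of these, 50 passed the filter, 35 were lower and 15 higher in cdKO by point estimate, and 0 passed the adjusted threshold. Beside this and the counts of each list below, 51.8% of all genes tested were lower. Genes read in the same libraries are not independent, so these counts of direction were not tested. At an unadjusted p under 0.05 edgeR had 1 lower, beside 0.813% of all genes, and 0 higher, beside 4.18%.

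The antagonists and receptors that bind Shh at the cell surface were lower in cdKO by point estimate for 4 of 4, with a median log2 fold change of -0.83. Lrp2, an endocytic receptor that takes part in Shh uptake, was the gene with an unadjusted p under 0.05. It was at 1.68, 0.863, 3.80, 1.86 and 4.06 CPM in control and at 1.08, 1.75, 1.28, 0.823 and 1.004 CPM in cdKO. The groups overlapped, with control replicates 3 and 5 high, and the log2 fold change was -1.04 (SE 0.46, edgeR unadjusted p = 0.038, adjusted p = 0.938). Hhip, an antagonist that binds Shh at the membrane, was named after its values were seen because it is induced by the signal as Ptch1 is. It was at 7.64 ± 3.68 CPM in control and 3.86 ± 2.93 in cdKO (SD, n = 5; log2 fold change -0.98, SE 0.54) and did not pass the test. The highest Hhip value was control replicate 5 at 13.5 CPM, and the lowest was cdKO replicate 5 at 1.14 CPM. The other control samples lay between 4.28 and 8.68 CPM and the other cdKO samples between 1.19 and 7.72 CPM, so the size of this difference rests partly on replicates 5.

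Genes that process or release the ligand gave 3 higher and 4 lower of 7 tested, with a median log2 fold change of -0.17. Those with the highest mean CPM were Scube1 and Scube2, secreted proteins that help Shh leave the cell. Scube1 was at 37.9 ± 18.8 CPM in control and 31.8 ± 14.6 in cdKO, and Scube2 at 14.9 ± 8.46 and 8.50 ± 2.29 (SD, n = 5; log2 fold changes -0.26 and -0.81, SE 0.49 and 0.41). Neither passed the test.

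Genes between Smo and the Gli factors, which include the cilium transport machinery and the kinases that phosphorylate Gli proteins, were lower by point estimate for 20 of 24, with a median of -0.21 and none at an unadjusted p under 0.05. Prkar1a, a regulatory subunit of protein kinase A, was at 595 ± 106 CPM in control and 564 ± 126 in cdKO, and Csnk1a1, casein kinase 1 alpha, at 503 ± 108 and 397 ± 116 (SD, n = 5). Their log2 fold changes were -0.08 (SE 0.27) and -0.34 (SE 0.28).

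Genes induced by Shh in the ventral neural tube had 4 higher and 5 lower of 9 tested, with a median of -0.15. Olig2, the factor of the motor neuron progenitor domain, was at 66.0 ± 19.1 CPM in control and 46.6 ± 19.3 in cdKO (log2 fold change -0.50, SE 0.34), and Mycn, a growth regulator, at 52.5 ± 11.5 and 45.9 ± 11.8 (-0.19, SE 0.28; SD, n = 5). Genes repressed by Shh had 4 higher and 2 lower of 6 tested, with a median of 0.15. Those with the highest mean CPM, Pax6 and Irx3, were at 58.5 ± 17.1 against 48.2 ± 20.1 CPM (-0.28, SE 0.34) and 14.5 ± 4.37 against 10.7 ± 1.61 CPM (-0.43, SE 0.29). These were the 2 lower genes of the list. Dbx1, an interneuron progenitor gene named after its values were seen, lay in the other direction, at 0.604 ± 0.248 CPM in control and 1.04 ± 0.184 in cdKO (SD, n = 5; log2 fold change 0.78, SE 0.41). Of the cdKO samples, 3 were above every control sample (exact permutation test, unadjusted p = 0.0238; edgeR unadjusted p = 0.0786, adjusted p = 0.938). None of these genes passed the edgeR test. Pax7, a dorsal gene of the repressed list, had 0 counts in all 10 samples, which allows up to 0.0591 CPM in the library with the highest limit (3 counts, counting error only).

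**Figure D4:**
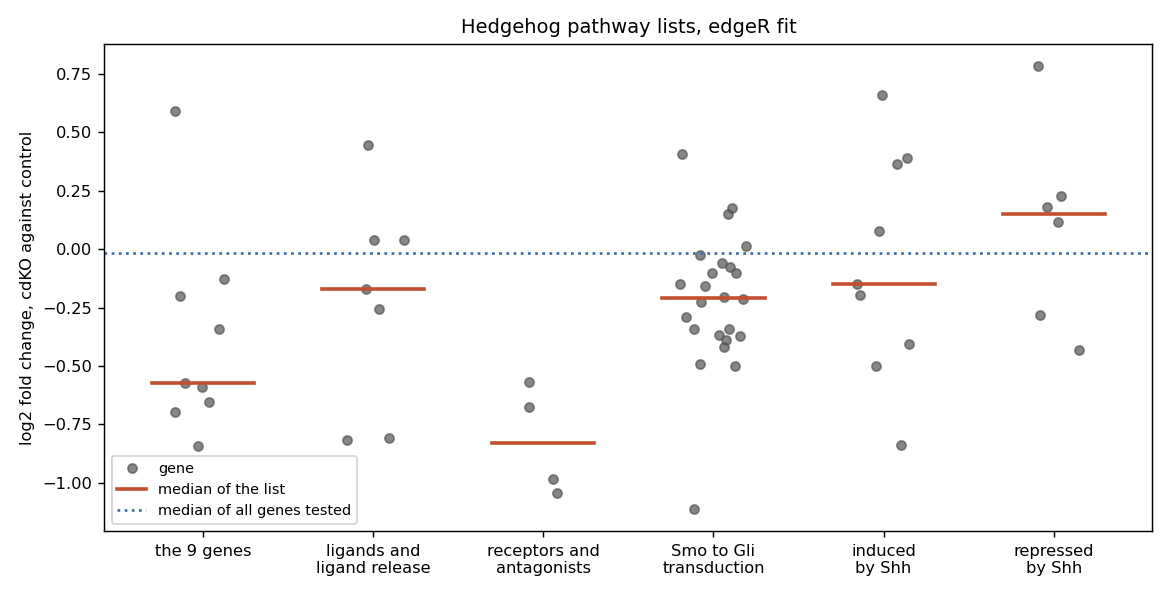
Log2 fold change of cdKO against control for the 9 genes and for 5 further lists of pathway genes, each point a gene that passed the filter, with the list median and the median of all genes tested (-0.02). The medians run from -0.83 for receptors and antagonists to 0.15 for genes repressed by Shh, and no point passed the adjusted threshold.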

How the data were processed

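RNA-seq of 5 control and 5 cdKO samples was used. Per the submitters' processing notes, bcl2fastq 2.17, Trimmomatic 0.36, STAR 2.5.2b, Subread 1.5.2 and DESeq2 were applied on GRCm38. The authors deposited raw counts per exon bin for each sample, not normalized. Reads were counted on every bin they overlap and without strand. Bins were given to genes with GENCODE M21 (1.17% of counts left out), and genes were scaled by TMM after filterByExpr (minimum 10 counts). The quasi-likelihood test of edgeR 4.0.16 (R 4.3.3) was run on 17840 genes, with p-values adjusted over all of them by Benjamini-Hochberg. Exact two-sided permutation tests used log2(CPM + 0.5) and all arrangements of 5 against 5. Tests were checked on simulated counts. The 9 genes and all lists were chosen with earlier results of these data known. Named genes were the 9 members, pathway list genes at an unadjusted p under 0.05 or otherwise the 2 with the highest mean CPM, marker genes beside a result, and the 2 closest profiles of each member. Not every gene that meets this rule is reported here. The titles give e10.5 for every sample, while the descriptions count up from e10.5. The study's methods name an ultra-low input library and the labels a NEBNext Ultra kit. Alternatives were DESeq2 1.42.0 (size factors and Wald test), limma-voom (limma 3.58.1), robust edgeR, library size alone, other filters, other sets of bins, a replicate block and each sample left out. The sets of bins reaching into the last 1000 exonic bases with the block, and both replicates 5 left out, were chosen after seeing the data. No samples within a group were duplicates (chi-square per degree of freedom at least 111).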

Additional observations from a re-analysis of the deposited data

Results flagged for a closer look

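In 40 groups of 5 values (levels of the 9 genes, their shares of counts near the 3′ end and library measures), 15 had a highest or lowest sample further from the rest than Dixon's 95% limit, where chance gives about 1 in 20 groups, or 2. Of these, 9 were cdKO replicate 5, 5 were control replicate 5 and 1 was cdKO replicate 2. The groups are readings of the same 10 libraries and are not independent, so the 15 are not separate surprises.

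In cdKO replicate 5, Shh was at 9.31 CPM (other cdKO samples 3.53 to 4.72), Smo at 18.04 CPM (86.9 to 94.0) and Boc at 1.14 CPM (7.68 to 9.001). Its share of counts on bins reaching into the last 1000 exonic bases was 99.6% for Shh, 82.1% for Ptch1, 84.3% for Smo and 94.8% for Boc, and the median over 5333 genes was 46.5%. The number of bins with counts was 198569, where the rest of the group had 254982 to 264487.

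In control replicate 5 the same share was 84.0% for Ptch1, 54.8% for Smo, 77.7% for Gli1 and 52.7% for Boc, with a median over genes of 27.6%, each the highest of the control group.

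Gli1 was at 4.51 CPM in cdKO replicate 2, against 0.800 to 1.73 CPM in the other cdKO samples.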

How the results depend on the processing

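Across the alternatives, 212 of 215 fold changes of the 9 genes and 156 of 162 permutation differences kept their direction and side of the threshold, and no gene of the 9 reached an adjusted p under 0.05 in any of 25 settings. At an unadjusted p under 0.05, Gli2 passed with library size alone, voom sample weights, the longest bin, the last 1000 bases, or without control replicate 1 or cdKO replicate 5, Gli1 and Gli3 passed without cdKO replicate 2, and Ptch1 with the last 1000 bases and the block. The Smo fold change turned to 0.13 with voom sample weights, and ranged from -0.35 to 0.12 with a sample left out. Its permutation difference ranged from -0.52 to 0.30 (0.05 without control replicate 2, 0.30 without cdKO replicate 5) and that of Gas1 from -0.33 to 0.0067 (0.00054 without control replicate 3, 0.0067 without control replicate 4). The permutation difference passed for Gli1 without cdKO replicate 2 (-1.04, p = 0.0238, range -1.04 to -0.55) and for Gli2 without control replicate 1 (-0.83, p = 0.0238, range -0.83 to -0.41), both exact permutation tests. Genes called over the whole table numbered 0, but 1 with library size alone, no filter or the last 1000 bases, 20 with DESeq2's Wald test, 3 with limma-voom, 13 with sample weights, 4 without both replicates 5 and 0 to 4 with a sample left out. Of all genes at an unadjusted p under 0.05, 16.3% were lower in cdKO, 39.8% with library size alone, 74.5% without cdKO replicate 5 and 63.0% without both replicates 5. Of the 54 other pathway genes, the 1 lower became 2 with library size alone, no filter, DESeq2's Wald test or without both replicates 5, 4 with sample weights, 0 with the replicate block alone or with the last 1000 bases, and 0 to 2 with a sample left out, and the 0 higher became 1 with at least 10 counts in every sample or DESeq2's Wald test, 3 with sample weights and 0 to 1 with a sample left out. Same-numbered samples of the 2 groups deviated from their group means with correlations from -0.32 to 0.43. Their mean was 0.15, against -0.02 for different numbers, but the highest value, 0.69, joined control replicate 2 and cdKO replicate 1. The numbers were not taken to pair the samples in the main fit, and a shared replicate effect was not tested. With a replicate block 0 genes were called, and the Ptch1 fold change was -0.55. The block lowered the SE of Smo from 0.46 to 0.26, of Boc from 0.57 to 0.33 and of Ptch1 from 0.37 to 0.25. It raised that of Shh from 0.36 to 0.38 and of Cdon from 0.59 to 0.77. The median fold change of all genes moved to -0.15 with library size alone. Gas1 has no bin of its own, so it had no value on bins of a single gene. The cause of these shifts was not tested.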
